A study of Mus musculus with 16 samples.

Results

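Antioxidant genes and targets of the transcription factor NRF2 were followed as 10 genes in bulk RNA-Seq counts of mouse blood neutrophils. The genes are Sod1, Sod2, Txnrd1, Srxn1, Gclm, Gpx1, Gpx4, Hmox1, Osgin1 and Nfe2l2, and they were found by symbol among the 23337 gene symbols of the count table. They were selected on the counts of these same libraries, in which Sod2 was known to be higher and Osgin1 lower with stimulation, so the comparison of stimulated with unstimulated libraries is given for these genes as a description, without a test. The rule sets no threshold, and all 10 passed the filter on low counts that left 9213 genes for testing.

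The 16 libraries came from C57/Bl6 mice of 8 weeks, whose blood neutrophils were enriched magnetically by negative selection. Control mice (Ctrl) carried Ltbr fl/fl without Cre, and LTβRΔN mice carried Ltbr fl/fl together with Mrp8-Cre, a recombinase driven by the promoter of the myeloid calprotectin gene S100A8. Controls gave 3 libraries labelled unstimulated and 4 labelled stimulated, and LTβRΔN mice gave 4 and 5. The treatment protocol names a culture of 2 h with 100 ng/ml TNF, 50 ng/ml IL-6 and 100 ng/ml GM-CSF, to which LIGHT was added at 500 ng/ml or not, whereas the design text takes the cytokines themselves as the treatment. Which single libraries received LIGHT is in no label, and the groups are therefore called stimulated and unstimulated as labelled. Nothing states that the libraries of a group came from separate mice, so p-values measure the spread between these libraries, which may be technical.

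NRF2, the product of Nfe2l2, is a transcription factor that is held back by KEAP1, which presents it for ubiquitination and degradation. Electrophiles and peroxides modify KEAP1, NRF2 then accumulates, pairs with a small MAF protein in the nucleus and binds antioxidant response elements near genes of glutathione, thioredoxin and iron metabolism. Neutrophils make superoxide with the phagocyte NADPH oxidase, and superoxide dismutases turn superoxide into hydrogen peroxide, which glutathione peroxidases and peroxiredoxins reduce to water. Sod2, the mitochondrial dismutase, is also a known target of NF-κB, the factor that TNF activates.

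Promoter stretches are shown for 5 of the genes that hold a searched motif. These were picked by hand, and Sod1, Srxn1 and Gpx1, which hold a motif too, are not shown. The CPM of 4 of the 5 did not overlap between the treatment labels in either genotype. RefSeq windows on GRCm38.p6, from 250 bases before to 50 after a start site, were at hand for 9 of the 10 genes (14 windows). Each stretch reads 5′ to 3′ on the strand of its gene, and the capitals mark the motif. Txnrd1 and Gclm hold the core of the antioxidant response element (TGACNNNGC, searched on both strands) on the opposite strand, and Nfe2l2 holds it on the strand of the gene. Sod2 holds a match to the κB consensus, which reads on both strands, and Osgin1 an AP-1 element (TGANTCA). On the opposite strand the Osgin1 stretch also comes close to the antioxidant core, with G in place of its C. The sequence therefore does not separate the AP-1 element from an element of that kind.
Sod2: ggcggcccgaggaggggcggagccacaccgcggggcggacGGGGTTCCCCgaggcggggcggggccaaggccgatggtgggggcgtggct
Txnrd1: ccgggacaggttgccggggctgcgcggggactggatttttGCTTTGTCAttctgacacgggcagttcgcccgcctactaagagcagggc
Osgin1: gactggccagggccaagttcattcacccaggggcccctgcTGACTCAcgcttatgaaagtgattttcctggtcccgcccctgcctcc
Nfe2l2: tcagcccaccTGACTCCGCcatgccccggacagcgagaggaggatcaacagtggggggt
Gclm: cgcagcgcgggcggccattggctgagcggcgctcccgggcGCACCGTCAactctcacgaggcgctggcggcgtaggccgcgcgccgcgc
The stretches lie at chr17:13007716-13007805 (Sod2, plus strand), chr10:82859074-82859162 (Txnrd1, plus), chr8:119437010-119437096 (Osgin1, plus), chr2:75704855-75704913 (Nfe2l2, minus) and chr3:122245383-122245471 (Gclm, plus). In the GENCODE M21 annotation those of Sod2, Txnrd1 and Osgin1 fall in introns of longer transcripts, upstream of the RefSeq start, and those of Nfe2l2 and Gclm lie outside the gene. The antioxidant core also occurred in the windows of Sod1 and Srxn1, which makes 5 of the 9 genes. It is not rare, being found in 12.4% of the 32851 RefSeq promoter windows of the same length. The AP-1 element was in 7.81% of windows, those of Osgin1 and Srxn1 among them, and the κB consensus was in 8.46%, those of Sod2 and Gpx1 among them. The motifs were chosen with the values of the genes known. A match is a sequence description and not a binding site, and counts per gene do not tell which of the 3 Txnrd1 windows was in use.

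Library totals ranged from 1094335 to 11932653 counts. The smallest was that of an unstimulated LTβRΔN library, and the group median was lowest in stimulated LTβRΔN neutrophils, at 2408608. Ltbr, the deleted gene, was at 116 ± 33.0 (SD, n = 3) and 109 ± 27.7 (SD, n = 4) CPM (counts per 1000000 of the library total scaled by edgeR's TMM factor) in unstimulated and stimulated control neutrophils. In LTβRΔN neutrophils it was at 8.22 ± 3.14 (SD, n = 4) and 8.65 ± 6.75 (SD, n = 5) CPM, in accord with the genotype labels. Neutrophil markers such as S100a8, Csf3r and Cxcr2 summed to 44420 to 74930 CPM over 7 genes of the list. Hba-a1 and Hba-a2 were at 0 in every library, as were the B cell genes Cd79b and Ms4a1. Libraries carried 1 of 2 i5 indices, called the library index below. S521 marked all 9 stimulated libraries and control unstimulated replicate 3, and S520 the other 6 unstimulated libraries. Within LTβRΔN the index and the treatment label therefore cannot be told apart. A model with the index estimates it from unstimulated control replicate 3 against the other 2, and its LTβRΔN values carry this difference over. The sum of 5 monocyte and macrophage markers was 672 to 714 CPM in unstimulated and 550 to 649 CPM in stimulated control libraries, and 608 to 862 and 538 to 630 CPM in LTβRΔN libraries. Of these, Ccr2 reached at most 1.39 and Cx3cr1 at most 0.170 CPM, and Csf1r, Ly6c2 and Cd68 made up nearly the whole sum. The part of other cells and of the index in the values below was not tested, except where a value is given. In bulk libraries, fewer cells that express a gene and less RNA per cell cannot be told apart.

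Sod2 and Txnrd1 were much higher, Nfe2l2 moderately higher and Osgin1 lower in stimulated neutrophils of both genotypes. Sod1, Gpx1, Gpx4, Hmox1, Gclm and Srxn1 differed by 0.70 or less in log2 fold change. Nfe2l2, at 0.54 and 0.67, lay within this bound too. The CPM of Sod2, Txnrd1, Nfe2l2 and Osgin1 did not overlap between the labels in either genotype, and nor did that of Srxn1 in control neutrophils. Over all tested genes 12.7% did not overlap in control and 7.28% in LTβRΔN neutrophils, and as the genes were selected on this contrast, nothing is read from the count.

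Sod2 (chromosome 17, 13006846 to 13040063, GRCm38, plus strand) encodes the manganese superoxide dismutase of the mitochondrial matrix. Its levels in the 3 unstimulated control libraries were 25.1, 22.9 and 21.9 CPM, and in the 4 stimulated ones 530, 602, 558.5 and 439 CPM. Unstimulated LTβRΔN libraries had 26.1, 27.2, 28.1 and 40.02 CPM, and stimulated ones 345, 636, 637, 481 and 378 CPM. The lowest stimulated library was more than 8 times the highest unstimulated one, and the groups were far from overlapping. The log2 fold change was 4.51 (standard error 0.238) in control neutrophils, a 22.8-fold difference, and 4.003 (standard error 0.206) in LTβRΔN neutrophils, a 16.04-fold difference. Replicate 3 of the unstimulated controls, which shares its index with all stimulated libraries, had the lowest Sod2 level of the 16 at 21.9 CPM.

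Sod1 (chromosome 16, 90220754 to 90226329, plus strand), the copper and zinc dismutase of the cytosol, did not share this pattern. It was at 58.6 ± 6.29 (SD, n = 3) and 56.1 ± 8.02 (SD, n = 4) CPM in unstimulated and stimulated control neutrophils, and at 63.4 ± 10.5 (SD, n = 4) and 50.0 ± 15.2 (SD, n = 5) CPM in LTβRΔN neutrophils. The log2 fold changes of −0.06 (standard error 0.241) and −0.35 (standard error 0.218) lay within the spread of overlapping libraries. Its 3′ part overlaps Scaf4 on the opposite strand, and since the strand setting of the counting is not given in the sources used here, reads of the shared stretch cannot be assigned with certainty. Within each library, where no scaling enters, there were 0.335 to 0.438 Sod2 counts per Sod1 count in unstimulated and 8.89 to 10.2 in stimulated control neutrophils. In LTβRΔN neutrophils the ratio went from 0.376 to 0.572 up to 5.08 to 23.2. Sod2 counts were thus below Sod1 counts in every unstimulated library and above them in every stimulated library of both genotypes.

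**Figure D1:**
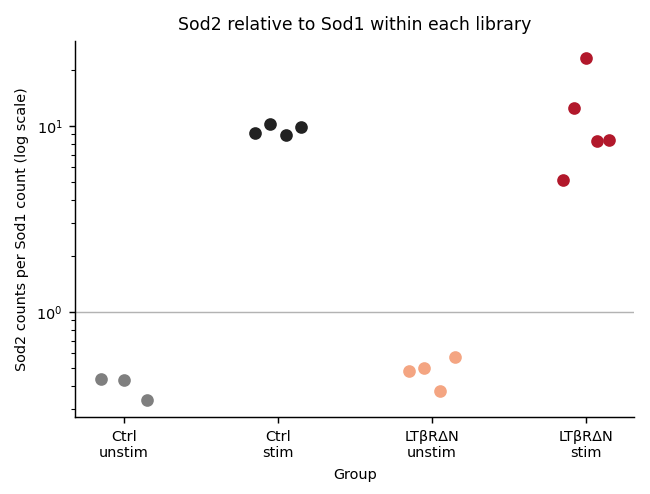
Sod2 counts divided by Sod1 counts in each library (vertical axis, logarithmic), by group (horizontal axis), with 1 point per library and a line at a ratio of 1. All 7 unstimulated libraries lie below 0.572 and all 9 stimulated libraries above 5.08.

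Txnrd1 (chromosome 10, 82833951 to 82897712, plus strand) encodes the cytosolic thioredoxin reductase, a selenoprotein that returns oxidised thioredoxin to its reduced form with NADPH. It was at 17.6, 21.9 and 16.4 CPM in unstimulated and 212, 220, 179 and 126 CPM in stimulated control libraries. In LTβRΔN neutrophils it was at 12.5, 38.4, 14.9 and 18.2 CPM without and at 113, 270, 190, 185 and 164 CPM with stimulation. Every stimulated library exceeded every unstimulated one, and the highest unstimulated value, 38.4 CPM, came from the shallowest library of the series. The log2 fold changes were 3.30 (standard error 0.325) and 3.27 (standard error 0.295), or 9.85-fold and 9.66-fold. Eid3, a gene within Txnrd1 on the same strand, had at most 97 counts in any library.

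Srxn1 encodes sulfiredoxin, which repairs overoxidised peroxiredoxins, and is a commonly used NRF2 target. In control neutrophils it was lower with stimulation, with 14.9, 19.4 and 13.3 CPM in unstimulated and 12.2, 10.7, 11.6 and 9.36 CPM in stimulated libraries. These groups did not overlap, yet the difference of −0.53 (standard error 0.551) on the log2 scale was smaller than its error in the shared model. The 4 unstimulated LTβRΔN libraries lay close together between 16.9 and 20.6 CPM, whereas the 5 stimulated ones ranged from 0.623 to 23.4 CPM. The lowest of these values is a single count in replicate 1, a library of 1697583 counts. The log2 fold change of −0.70 (standard error 0.503) became −0.41 without this library. When single libraries were left out in turn it reached −1.13 at the other extreme. The groups of LTβRΔN neutrophils overlapped.

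Gclm, the modifier subunit of glutamate-cysteine ligase, the enzyme of the first step of glutathione synthesis, varied widely within groups. It was at 23.3 ± 5.79 (SD, n = 3) and 16.1 ± 9.69 (SD, n = 4) CPM in unstimulated and stimulated control neutrophils. In LTβRΔN neutrophils it was at 21.2 ± 9.53 (SD, n = 4) and 20.4 ± 16.7 (SD, n = 5) CPM. The groups overlapped in both genotypes, and the log2 fold changes were −0.53 (standard error 0.532) and −0.13 (standard error 0.485). The control value ranged from −0.94 to −0.24 when single libraries were left out. The LTβRΔN value depended on shallow libraries, being −1.05 without the 3 libraries under 2000000 counts. One of these 3, stimulated LTβRΔN replicate 3, had 50.0 CPM, against 11.02 to 14.9 CPM in the other 4 of its group.

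Gpx1 and Gpx4 encode selenium-dependent glutathione peroxidases, of which GPX1 reduces hydrogen peroxide and GPX4 phospholipid hydroperoxides. Gpx1 had the highest CPM of the 10 genes, with 1019 ± 158 (SD, n = 3) and 1089 ± 99.2 (SD, n = 4) in unstimulated and stimulated control neutrophils and 1189 ± 142 (SD, n = 4) and 1095 ± 79.4 (SD, n = 5) in LTβRΔN neutrophils. Gpx4 was at 425 ± 36.5 (SD, n = 3) and 430 ± 50.2 (SD, n = 4) CPM in control and at 486 ± 37.8 (SD, n = 4) and 452 ± 50.0 (SD, n = 5) CPM in LTβRΔN neutrophils. Both genes varied little, and their groups overlapped. Log2 fold changes were 0.10 (standard error 0.127) and −0.12 (standard error 0.112) for Gpx1 and 0.01 (standard error 0.129) and −0.11 (standard error 0.114) for Gpx4, in control and LTβRΔN neutrophils respectively. Scaling by library totals alone turned the control values to −0.15 and −0.23, with the median of all tested genes at −0.27 under that scaling. The library index moved Gpx1 to 0.34 in control and 0.23 in LTβRΔN neutrophils, and Gpx4 to 0.081 in LTβRΔN neutrophils.

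Hmox1, which encodes the inducible heme oxygenase and is a classical NRF2 target, was at 64.6, 45.3 and 102 CPM in unstimulated and 54.6, 44.8, 51.3 and 93.9 CPM in stimulated control libraries. In LTβRΔN neutrophils it ranged from 40.5 to 88.6 CPM without and from 49.8 to 66.9 CPM with stimulation. Each group held libraries on both sides of 60 CPM, and the groups overlapped. Log2 fold changes were −0.20 (standard error 0.299) in control and −0.04 (standard error 0.271) in LTβRΔN neutrophils. The latter became −0.93 with the library index in the model, a term that rests on unstimulated control replicate 3, at 102 CPM. For control neutrophils that model sets the stimulated libraries against this replicate, which lay above all of them.

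Osgin1 (chromosome 8, 119434124 to 119446256, plus strand), the oxidative stress induced growth inhibitor, is also known as an NRF2 target but went the other way from Txnrd1. Control libraries had 808, 658 and 762 CPM without and 229, 217, 193 and 320 CPM with stimulation. LTβRΔN libraries had 781, 964, 712 and 732 CPM without and 264, 194, 319, 198 and 287 CPM with stimulation. The lowest unstimulated library, at 658 CPM, was more than 2 times the highest stimulated one, at 320 CPM. The log2 fold changes of −1.63 (standard error 0.180) and −1.66 (standard error 0.161) correspond to levels 3.10-fold and 3.16-fold lower. The monocyte and macrophage marker sum, given above, was lower with stimulation in control libraries, and its ranges overlapped in LTβRΔN libraries. Its relation to Osgin1 was not tested.

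Nfe2l2 (chromosome 2, 75675513 to 75704641, minus strand), which encodes NRF2, had 496, 360 and 478 CPM in unstimulated and 666, 611, 648 and 662 CPM in stimulated control libraries. It had 464, 405, 405 and 409 CPM in unstimulated and 695, 695, 671, 677 and 610 CPM in stimulated LTβRΔN libraries. The groups did not overlap in either genotype, although the unstimulated controls spread over 360 to 496 CPM. The difference was small beside that of Sod2, with log2 fold changes of 0.54 (standard error 0.121) and 0.67 (standard error 0.107), or 1.46-fold and 1.59-fold. With the library index in the model the log2 fold changes were 0.44 and 0.51. In control neutrophils the value was 0.40 when unstimulated replicate 2, the lowest at 360 CPM, was left out and 0.30 when totals alone set the scale. For Sod2, Txnrd1 and Osgin1 the model with the index gave 4.602, 3.48 and −1.67 in control and 4.14, 3.53 and −1.72 in LTβRΔN neutrophils. The product of Nfe2l2 is controlled chiefly through protein stability, which RNA counts do not measure.

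**Figure D2:**
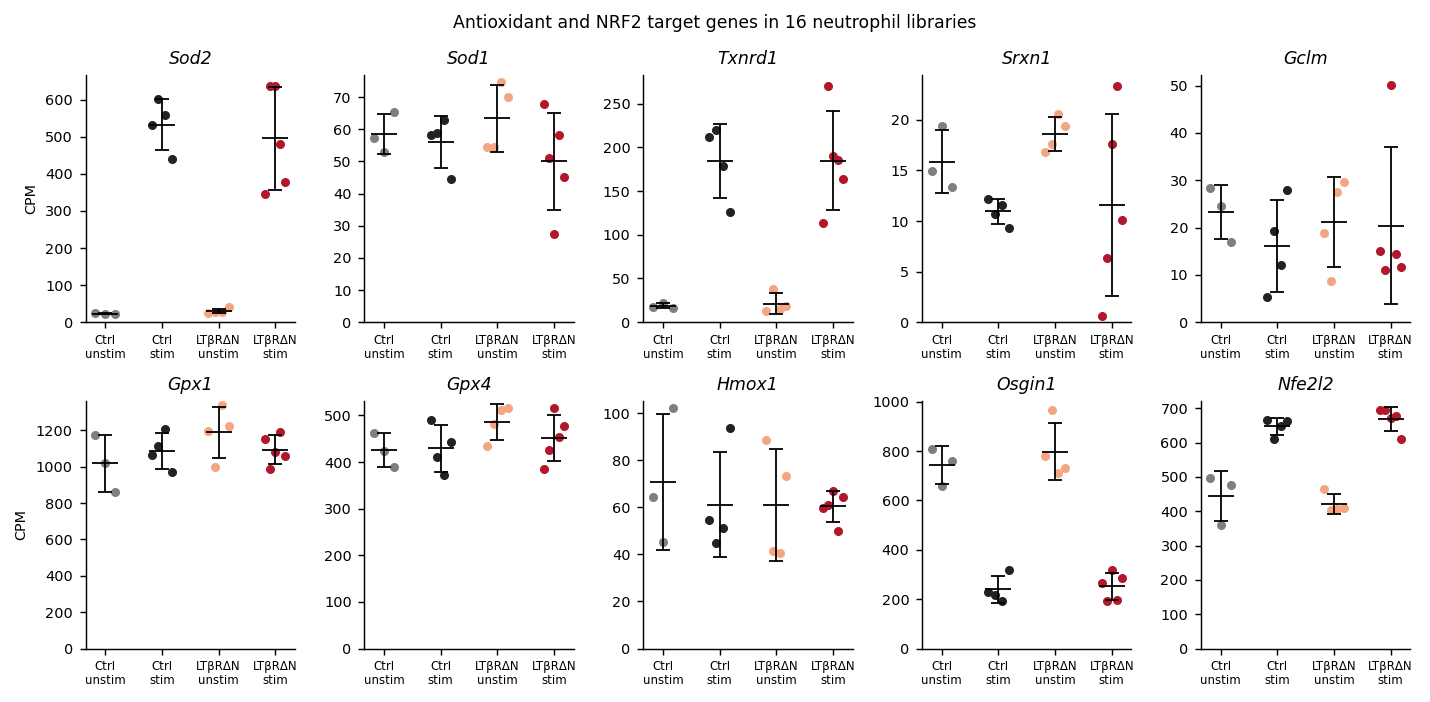
CPM of the 10 genes (vertical axes, linear from 0) in each of the 16 libraries by group, with 1 point per library and the mean ± SD in black. Stimulated libraries lie above all unstimulated ones for Sod2, Txnrd1 and Nfe2l2 and below them for Osgin1, and the points of Sod1, Gpx1, Gpx4, Hmox1 and Gclm intermingle.

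**Figure D3:**
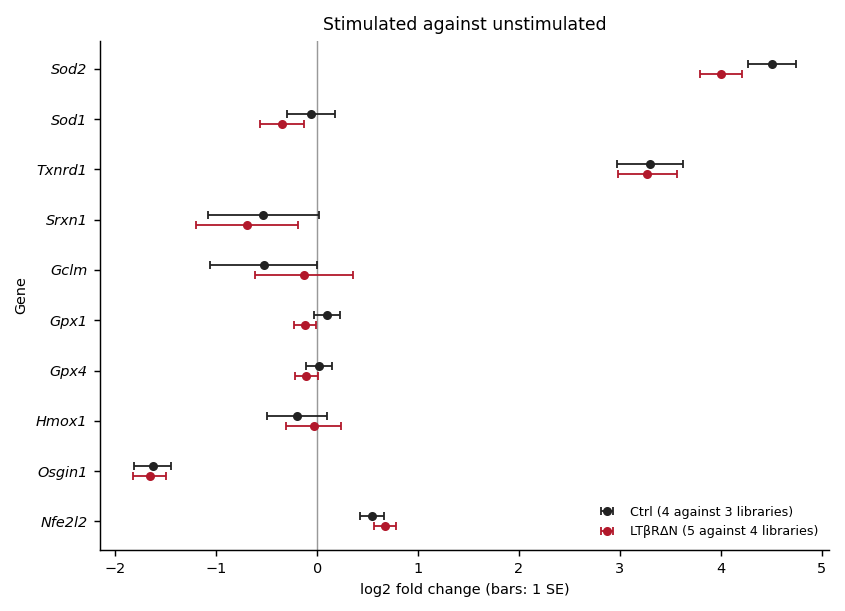
Log2 fold change of stimulated against unstimulated libraries (horizontal axis) for each gene (vertical axis) in control (black) and LTβRΔN (red) neutrophils, with bars of 1 standard error. Sod2 lies at 4.51 and 4.003, Txnrd1 at 3.30 and 3.27, Osgin1 at −1.63 and −1.66 and Nfe2l2 at 0.54 and 0.67, and the other 6 genes lie between −0.70 and 0.10.

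Levels of different genes were compared as CPM per kilobase of the union of GENCODE M21 exons, a length that overstates the transcript where, as for Sod2, long alternative exons are annotated. Gpx1 was the highest in each group, with 707 ± 110 (SD, n = 3) CPM per kilobase in unstimulated control neutrophils. Osgin1 followed there at 278 ± 28.8 (SD, n = 3) and Gpx4 at 247 ± 21.2 (SD, n = 3) CPM per kilobase, neighbours whose ranges overlapped, and Nfe2l2 came next at 117 ± 19.4 (SD, n = 3). Sod2 was the lowest of the 10 at 2.33 ± 0.164 (SD, n = 3), next to Txnrd1 at 2.63 ± 0.403 (SD, n = 3), and these ranges overlapped as well. In stimulated control neutrophils Sod2 took the fifth place at 53.2 ± 6.86 (SD, n = 4) and Txnrd1 the seventh at 25.98 ± 6.002 (SD, n = 4), whose range of 17.8 to 31.0 overlapped that of Hmox1 at 25.6 to 53.6. Osgin1 was in the fourth place at 89.7 ± 20.8 (SD, n = 4), behind Gpx1, Gpx4 and Nfe2l2, and Gclm was the lowest at 2.57 ± 1.54 (SD, n = 4). The order in LTβRΔN neutrophils was the same but for Sod2 and Txnrd1 in the last 2 places of the unstimulated group, with 3.03 ± 0.648 and 2.97 ± 1.67 (SD, n = 4).

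The question whether deletion of Ltbr altered these genes was asked by comparing LTβRΔN with control neutrophils under each label, a contrast that did not choose them. None of the 10 genes passed the edgeR test in unstimulated neutrophils, where 0.0217% of all genes passed, and none in stimulated neutrophils, where again 0.0217% passed. At an unadjusted p under 0.05 the number was also 0 of 10 under both labels, beside 2.8% of all genes without and 6.41% with stimulation, and DESeq2 called 0 of the 10. In stimulated neutrophils the log2 differences ranged from −0.16 for Sod1 to 0.30 for Gclm. That of Sod2 was −0.10 with a 95% confidence interval of −0.46 to 0.25, that of Osgin1 0.07 (−0.26 to 0.40), that of Txnrd1 0.01 (−0.50 to 0.53) and that of Nfe2l2 0.05 (−0.17 to 0.27). In unstimulated neutrophils the log2 differences ranged from −0.19 for Hmox1 (−0.81 to 0.43) to 0.40 for Sod2, described next. Srxn1 differed by 0.23 (−0.92 to 1.39), Gpx1 by 0.22 (−0.04 to 0.49) and Gpx4 by 0.19 (−0.08 to 0.46). Osgin1 differed by 0.10 (−0.27 to 0.47), Txnrd1 by 0.04 (−0.61 to 0.69) and Nfe2l2 by −0.08 (−0.33 to 0.17).

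Sod2 in unstimulated neutrophils was the exception in its layout. All 4 LTβRΔN libraries, at 26.1 to 40.02 CPM, lay above all 3 control libraries, at 21.9 to 25.1 CPM, with a mean of 30.4 ± 6.49 (SD, n = 4) against 23.3 ± 1.64 (SD, n = 3) CPM. The log2 difference was 0.40 with a 95% confidence interval of −0.03 to 0.84 and did not pass the test (edgeR adjusted p = 1). The gap between the nearest libraries, 25.1 and 26.1 CPM, was smaller than the SD of either group. It was 1 of the 10 genes whose groups did not overlap in unstimulated neutrophils, beside 5.71% of all tested genes, and in stimulated neutrophils there was none, beside 1.31%.

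The interaction, the difference between the 2 genotypes in their response to stimulation, was not called for any of the 10 genes or for any of the 9213 tested (0%), by edgeR or by DESeq2, although 342 genes, or 3.71%, had an unadjusted edgeR p under 0.05, with 0 of the 10 among them. The log2 estimates ranged from −0.51 for Sod2, with a 95% confidence interval of −1.07 to 0.06, to 0.40 for Gclm (−1.10 to 1.90). For Txnrd1 the estimate was −0.03 (−0.86 to 0.80), for Osgin1 −0.03 (−0.53 to 0.47) and for Nfe2l2 0.13 (−0.20 to 0.46). The edgeR adjusted p was 0.9999 for each of the 10. As the intervals of Txnrd1, Srxn1 and Gclm reach far to either side of 0, the test does not show that the genotypes responded alike.

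**Figure D4:**
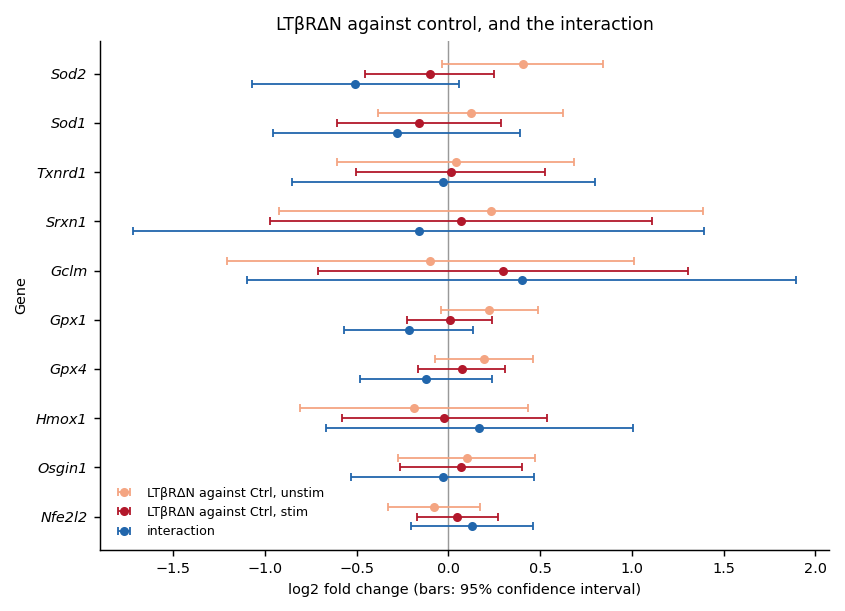
Log2 difference between LTβRΔN and control neutrophils without (orange) and with stimulation (red), and the interaction (blue), for each of the 10 genes (vertical axis), with 95% confidence intervals. Every interval includes 0, and those of Gclm and Srxn1 are the widest.

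Around the 10 genes stands a wider list of 60 genes in 7 roles, of which 51 passed the filter on low counts. In control neutrophils 4 of the 51 were higher and 2 lower with stimulation, and in LTβRΔN neutrophils 5 were higher and 2 lower by the edgeR quasi-likelihood test (Benjamini-Hochberg adjusted p under 0.05). Over all tested genes 3.48% passed in control and 3.73% in LTβRΔN neutrophils, which is also the background of the counts by role below. The list was drawn up with earlier results of these data known, so neither its counts nor the p-values of its genes are independent evidence. The median log2 fold change of the list was −0.01 and −0.05, beside −0.02 and −0.03 over all tested genes. No gene of the list passed the test between genotypes under either label or in the interaction, by edgeR or by DESeq2, and 4, 1 and 2 of the 51 had an unadjusted edgeR p under 0.05 in stimulated neutrophils, unstimulated neutrophils and the interaction, beside 6.41%, 2.8% and 3.71% of all tested genes.

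Among the 8 regulators and partners of NRF2, Maff rose. It encodes a small MAF protein, the kind with which NRF2 pairs on DNA, and went from 8.21 ± 2.40 (SD, n = 3) to 104 ± 21.1 (SD, n = 4) CPM in control neutrophils, which is 3.68 on the log2 scale (standard error 0.308, edgeR adjusted p = 1.06e-08). In LTβRΔN neutrophils it went from 7.77 ± 2.77 (SD, n = 4) to 83.4 ± 18 (SD, n = 5) CPM, by 3.36 (standard error 0.276, edgeR adjusted p = 6.68e-09). The other small MAF genes did not pass, with log2 fold changes of −0.72 and −0.61 for Mafk and 0.27 and 0.30 for Mafg in control and LTβRΔN neutrophils. Mafk passed in control neutrophils under totals alone (−0.96) and in LTβRΔN neutrophils without stimulated replicate 4 (−0.86). Nor was there a call for Keap1, the repressor of NRF2, at −0.11 and −0.05, its ligase partner Cul3 at 0.67 and 0.98 (0.062 in control without stimulated replicate 1, at 50.7 CPM against 14.1 to 20.2 CPM in the other 3), the competing repressor Bach1 at 0.16 and 0.07, the NRF2 relative Nfe2l1 at 0.04 and −0.01, or Sqstm1, an autophagy receptor that binds KEAP1, at 0.26 and 0.26. The signs of Keap1, Bach1 and Nfe2l1 changed with the scaling, the filter or the libraries used.

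Slc7a11 was the 1 gene of the 9 tested NRF2 target enzymes and transporters that passed. It encodes the cystine importer that supplies glutathione synthesis and rose in control neutrophils from a mean of 84.3 ± 37.2 (SD, n = 3) up to 440 ± 54.4 (SD, n = 4) CPM, by 2.39 on the log2 scale (standard error 0.256, edgeR adjusted p = 5.15e-07). In LTβRΔN neutrophils it rose from a mean of 123 ± 43.3 (SD, n = 4) up to 495 ± 35.4 (SD, n = 5) CPM, by 1.99 (standard error 0.221, edgeR adjusted p = 9.55e-07). Of the 10 tested genes of glutathione synthesis and use, none passed in either genotype, with smallest edgeR adjusted p of 0.0721 and 0.0868 and 1 gene each at an unadjusted p under 0.05, beside 11.4% and 13% of all tested genes. The 3 tested genes for superoxide, peroxide and copper did not pass either.

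In the thioredoxin and peroxiredoxin group, 2 of 13 tested genes passed in control neutrophils, in opposite directions, and 3 in LTβRΔN neutrophils. Prdx6, a peroxiredoxin that acts on phospholipid hydroperoxides, rose by 1.17 (standard error 0.154, edgeR adjusted p = 1.17e-05) and by 0.93 (standard error 0.135, edgeR adjusted p = 4.94e-05) on the log2 scale. Txnip, the inhibitor of thioredoxin, fell by 1.19 (standard error 0.199, edgeR adjusted p = 0.000322) and by 1.103 (standard error 0.176, edgeR adjusted p = 0.000165), from 2649 ± 790 (SD, n = 3) to 1163 ± 168 (SD, n = 4) CPM in control neutrophils. Sesn2, a stress sestrin, passed in LTβRΔN neutrophils at 0.67 (edgeR adjusted p = 0.0228) and missed the threshold in control neutrophils at 0.63 (edgeR adjusted p = 0.0744), values that are nearly the same, and the interaction for Sesn2 was 0.03 (standard error 0.251). Its call in LTβRΔN neutrophils was lost without unstimulated replicate 1 (0.68), 3 (0.68) or 4 (0.53) or stimulated replicate 1 (0.63) or 5 (0.64), under totals alone (0.47) and without libraries under 2000000 counts (0.76). In control neutrophils Sesn2 passed with DESeq2 (0.65), under the stricter filter of 10 counts per library (0.65), without stimulated control replicate 1 (0.75) and without unstimulated LTβRΔN replicate 4 (0.64).

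Fth1, the ferritin heavy chain that stores iron, was the 1 gene of 5 for heme and iron that passed. It rose from a mean of 6045 ± 784 (SD, n = 3) up to 14750 ± 732 (SD, n = 4) CPM in control neutrophils, by 1.29 (standard error 0.154, edgeR adjusted p = 2.83e-06), and by 1.17 (standard error 0.134, edgeR adjusted p = 1.52e-06) in LTβRΔN neutrophils, with the limit that ferritin has near-identical processed pseudogenes, among which counting could split reads. Sephs2, which makes the selenium donor for selenoproteins, fell by 0.60 (standard error 0.130, edgeR adjusted p = 0.00626) and by 0.67 (standard error 0.115, edgeR adjusted p = 0.000402), as 1 of 3 tested genes for selenoprotein synthesis, and its call in control neutrophils was lost without unstimulated replicate 2 (−0.55, edgeR adjusted p = 0.0529). When the index was added to the model, Txnip (−0.63 in control and −0.33 in LTβRΔN neutrophils) and Sephs2 (−0.66 and −0.76) did not pass in either genotype. Slc7a11 (0.99), Fth1 (0.90) and Sesn2 (0.74) did not pass in LTβRΔN neutrophils, so that the estimates of Txnip, Slc7a11 and Fth1 shrank there and those of Sephs2 and Sesn2 did not. Maff and Prdx6 passed in both genotypes.

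**Figure D5:**
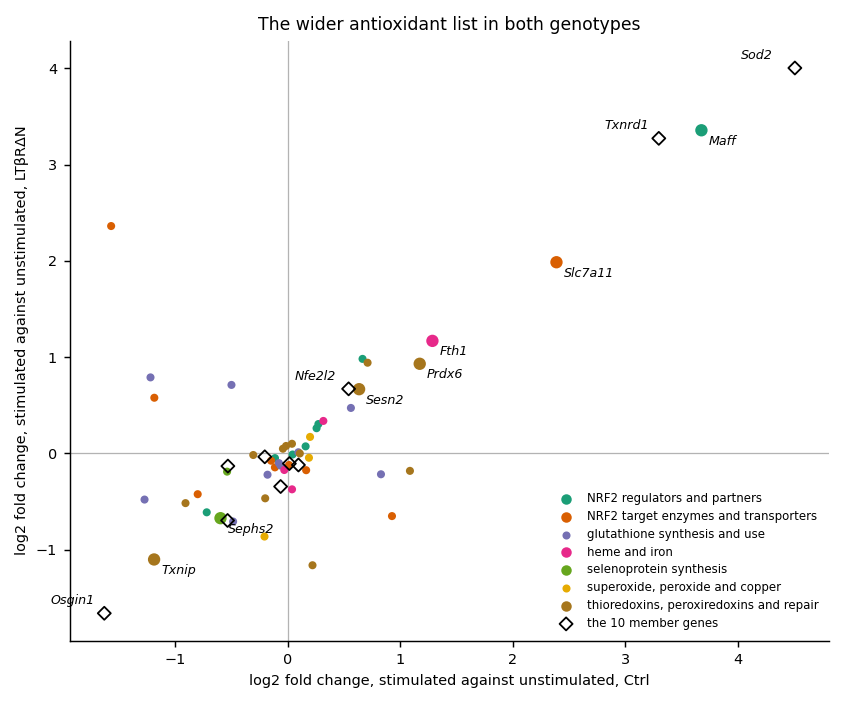
Log2 fold change with stimulation in control (horizontal axis) and LTβRΔN neutrophils (vertical axis) for 49 of the 51 tested genes of the wider list, coloured by role, with the 10 genes as open diamonds. Large points passed the test in at least 1 genotype, and Blvra and Eefsec, which lie beyond the axes, had at most 37 counts in any library.

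Genes most like Sod2 and Osgin1 were sought among all tested genes by Pearson's r of log2 CPM over the 16 libraries, a description that is dominated by the treatment label and that carries no test. Closest to Sod2 were Id1 (r = 0.995), Bcl2a1b (r = 0.994) and Marcksl1 (r = 0.993). Bcl2a1b has near-identical paralogs, between which reads may be split. Closest to Osgin1 were Dusp6 (r = 0.967), Pnrc2 (r = 0.946) and Plk3 (r = 0.943). None of the other 9 genes was among the 3 closest to either.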

How the data were processed

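Bulk RNA-Seq counts of 16 blood neutrophil libraries were analysed. The authors deposited 1 table of raw counts of reads per gene symbol, without normalization. The submitters' processing notes name Bowtie 1.0.0, TopHat 1.4.1, HTSeq 0.7.1 and the build mm10, and the annotation and strand setting are not given in the sources used here. Groups were taken from the sample labels.

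Genes were kept by filterByExpr (minimum count 10, minimum total 15), scaled by TMM and fitted in edgeR 4.0.16 (R 4.3.3) with 1 coefficient per group over all 16 libraries, and tested by the quasi-likelihood test with Benjamini-Hochberg adjustment over 9213 genes at 0.05. The steps were tested on simulated data. CPM used TMM factors, and log2 CPM a prior count of 2. One count was worth 0.0761 to 0.800 CPM. Standard errors were taken from the log2 fold change and its F statistic, and confidence intervals from the t distribution of the test. Alternatives were DESeq2 1.42.0 and its size factors, library totals, other filters, the library index as a covariate, the compared groups alone, omission of libraries under 2000000 counts, a replicate block and each library left out in turn. No library was a repeat of another: chi-square per degree of freedom was 6.82 to 47.8 over 25 pairs of the same group. Gene places came from GENCODE M21 (GRCm38) and promoters from RefSeq. The genes named are the 10 members, the wider-list genes that passed in any comparison, all regulators and partners of NRF2, the 3 genes most like Sod2 and Osgin1, and Ltbr. The members and lists were chosen with earlier results of these data known.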

Additional observations from a re-analysis of the deposited data

Results flagged for a closer look

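In 4 of 30 groups of 4 or 5 libraries (3 sets for each of the 10 genes), the highest or lowest library stood apart from the rest of its group by Dixon's criterion, where chance gives about 1 in 20, or 1.5. Sod2 was at 40.02 CPM in unstimulated LTβRΔN replicate 4, against 26.1 to 28.1 CPM in the other 3 libraries. Gclm was at 50.0 CPM in stimulated LTβRΔN replicate 3, against 11.02 to 14.9 CPM in the other 4. Nfe2l2 was at 464 CPM in unstimulated LTβRΔN replicate 1, against 405 to 409 CPM in the other 3, and at 610 CPM in stimulated LTβRΔN replicate 5, against 671 to 695 CPM in the other 4. Each of these Nfe2l2 values stayed on its own side of the gap between unstimulated and stimulated libraries.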

How the results depend on the processing

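When single libraries were left out, log2 fold changes with stimulation in control neutrophils ranged from 4.45 to 4.59 for Sod2, 3.21 to 3.45 for Txnrd1, −1.80 to −1.54 for Osgin1 and 0.40 to 0.63 for Nfe2l2, and in LTβRΔN neutrophils from 3.89 to 4.19, 3.08 to 3.59, −1.76 to −1.56 and 0.65 to 0.72. The median of all tested genes moved to −0.27 in control and −0.21 in LTβRΔN neutrophils when totals alone set the scale, and the share of calls that were higher went from 81.0% to 42.5% and from 79.9% to 42.4%. With the library index in the model, 157 genes (321 without it) passed in control and 79 (344) in LTβRΔN neutrophils, 2 of the wider list (7) in LTβRΔN neutrophils and 1 gene (0) in the interaction. That term rests on 1 unstimulated control library against the other 2. DESeq2 called 14 genes (2 by edgeR) between genotypes in stimulated and 4 (2) in unstimulated neutrophils, and 4 were called there when every gene with at least 1 count was tested. When single libraries were left out this count ranged from 2 to 6, and that of the interaction from 0 to 2, both highest without control unstimulated replicate 1. None of the 10 genes was called between genotypes or in the interaction under any alternative.

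Whether the numbers that recur in the column names pair the libraries is not stated, and the main model took no account of them. Deviations from the group mean of libraries with the same number correlated at 0.0214 to 0.0694 over 7 pairs. These correlations were low. Yet 6 of 7 unstimulated libraries correlated best with the stimulated library of their own number. The candidates were the 4 stimulated control or the 5 stimulated LTβRΔN libraries. A pairing was thus neither established nor excluded. With these numbers as a replicate block, 324 genes passed in control and 343 in LTβRΔN neutrophils. Differences between genotypes lie between the numbers and were not fitted with the block, and the interaction was not fitted on 2 groups alone.

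Some estimates changed sign, and the cause was not tested. Many were near 0, but Gclm, Txnrd1, Nfe2l1 and Bach1 had reversed values further from 0, given below. With stimulation, library totals gave −0.096 (control) and −0.10 (LTβRΔN) for Bach1 and −0.20 (control) for Nfe2l1, and the index gave −0.18 (control) for Nfe2l1. Nfe2l1 was at −0.45 (control) and 0.058 (LTβRΔN) with the replicate block, and in LTβRΔN neutrophils at 0.0085 with DESeq2 size factors, 0.0099 with at least 10 counts in every library, 0.012 with DESeq2 and 0.0021 with the compared groups alone. Without libraries under 2000000 counts Keap1 was at 0.092 and Bach1 at −0.36 in LTβRΔN neutrophils. Between genotypes these deep libraries gave −0.084 for Osgin1 and −0.39 for Gclm with stimulation, −0.28 for Txnrd1 and −0.0030 for Osgin1 without, and 0.45 for Txnrd1 and −0.52 for Gclm in the interaction. In unstimulated neutrophils Txnrd1 was at −0.0099 under totals and −0.038 with the index, and Hmox1 at 0.17 with the index. In the interaction Txnrd1 was at 0.027 and Osgin1 at 0.026 under totals, and Txnrd1 at 0.0498 with the index.

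When single libraries were left out, Keap1 ranged from −0.41 to 0.032 and from −0.40 to 0.13 with stimulation in control and LTβRΔN neutrophils, Nfe2l1 from −0.23 to 0.42 and from −0.39 to 0.17, and Bach1 from −0.12 to 0.27 in LTβRΔN neutrophils. Between genotypes with stimulation, Sod2 ranged from −0.21 to 0.0030, Txnrd1 from −0.17 to 0.14, Osgin1 from −0.027 to 0.24 and Gclm from −0.32 to 0.71. Without stimulation, Txnrd1 ranged from −0.28 to 0.23, Nfe2l2 from −0.21 to 0.0052 and Hmox1 from −0.43 to 0.17. In the interaction, Txnrd1 ranged from −0.22 to 0.29, Osgin1 from −0.13 to 0.14 and Gclm from −0.22 to 0.81. The lowest minimum and maximum counts of the 10 genes were those of Srxn1, with 1 to 228 per library, and Gclm, with 11 to 373. The part of depth in their spread was not tested.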
